A study of Mus musculus with 2 samples.

Results

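The mir-26 family of the mouse comprises 3 microRNA (miRNA) genes, Mir26a-1, Mir26a-2 and Mir26b, which were selected by their GENCODE M21 gene names from the 2202 miRNA genes of the count tables. Their reads were measured in 2 small RNA libraries, biological replicates 1 and 2, made from total RNA of hippocampus. The animals were female B6CASTF1/J mice aged 36 days, a cross of the C57BL/6J and CAST/EiJ strains. Both libraries belong to 1 group with no treatment or mutant allele, so the comparisons are between genes of the family and between the libraries. The labels give each library its own biosample but the same donor entry, so whether 2 animals were sampled is not settled by them. The spread between the libraries may be technical in part.

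A miRNA is cut from the 5′ arm (5p) or the 3′ arm (3p) of a hairpin precursor, and the strand that is kept pairs with messenger RNAs through its seed, bases 2 to 8. The mir-26 hairpins lie in introns of the Ctdsp genes, which encode small phosphatases that act on the C-terminal domain of RNA polymerase II and serve as partners of the REST repressor of neuronal genes. In zebrafish, miR-26b represses the Ctdsp2 transcript during neural differentiation. Messenger RNA of the hosts was not measured here.

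The mature and hairpin sequences are shown first because they set which reads can be assigned to which gene. They are from RefSeq on GRCm38.p6, where all 3 members had an entry, at the same positions as in GENCODE M21. In the mature sequences, written 5′ to 3′, capitals mark the seed.
miR-26a-5p (Mir26a-1 and Mir26a-2): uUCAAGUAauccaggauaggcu
miR-26b-5p (Mir26b): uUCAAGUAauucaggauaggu
miR-26a-1-3p (Mir26a-1): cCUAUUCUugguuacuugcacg
miR-26a-2-3p (Mir26a-2): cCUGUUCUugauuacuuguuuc
miR-26b-3p (Mir26b): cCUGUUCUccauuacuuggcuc

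The 5p arm of both mir-26a genes has the same 22 bases, and no other gene of the RefSeq table carries this mature sequence. The 21 bases of miR-26b-5p differ from it at 2 positions counted from the 5′ end, C11U and C21U, with 0 differences in the seed. The 5p seed UCAAGUA occurs in the mature sequences of the 3 members alone in that table. The 3p arms are distinct in all 3 genes. Between miR-26a-1-3p and miR-26a-2-3p 6 of 22 bases differ, and the change A4G lies in the seed. The 3p seed CUGUUCU of Mir26a-2 and Mir26b is shared with Mir6932 and Mir7039, which had 6 and 5 reads in replicate 1 and 1 and 2 reads in replicate 2.

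In the hairpins, capitals mark the longest stretch shared by both mir-26a hairpins and, in Mir26b, the longest stretch it shares with Mir26a-1.
Mir26a-1 hairpin (chr9:119031796-119031885, plus strand): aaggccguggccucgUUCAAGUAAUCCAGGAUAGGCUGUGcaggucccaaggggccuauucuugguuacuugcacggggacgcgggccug
Mir26a-2 hairpin (chr10:126995530-126995613, plus strand): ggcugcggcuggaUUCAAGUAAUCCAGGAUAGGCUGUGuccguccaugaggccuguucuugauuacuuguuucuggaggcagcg
Mir26b hairpin (chr1:74394310-74394394, plus strand): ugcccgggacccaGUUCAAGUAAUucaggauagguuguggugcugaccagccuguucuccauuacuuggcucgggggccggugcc

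The mir-26a hairpins share 25 consecutive bases, which cover the whole 5p arm and 3 bases after it, whereas Mir26b shares at most 11 with either. Of the 22-base windows of the hairpins, 4 of 69 in Mir26a-1 and 4 of 63 in Mir26a-2 occurred in another annotated gene, in each case the other mir-26a gene. In Mir26b 0 of 64 windows did. The search covered both strands of 141767 GENCODE M21 transcripts, so copies in introns or between genes were not analysed here. A 5p read of mir-26a that stays within the 25 shared bases therefore has at least 2 places, and the count tables hold such reads in a row of their own that names no gene. A read from a 3p arm, or one that reaches past the shared stretch, can be told apart between the genes.

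**Figure D1:**
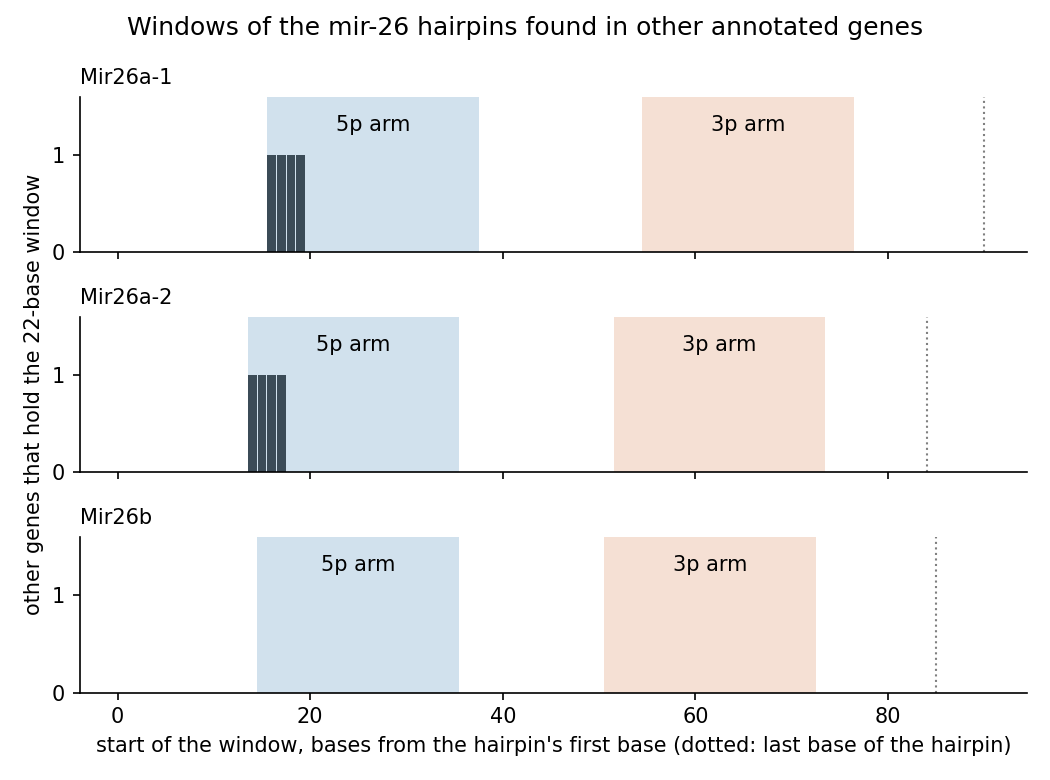
Number of other annotated genes whose transcripts hold the 22-base window that starts at each base of the 3 hairpins, counted from the first base of the hairpin; shaded spans are the 5p and 3p arms and the dotted line is the last base. Shared windows start at the first 4 bases of the 5p arm of Mir26a-1 and Mir26a-2, and Mir26b has 0.

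Each hairpin lay in an intron of its host and on the host's strand. Mir26a-1 (ENSMUSG00000065513.1) is in intron 5 of 7 of the principal transcript of Ctdspl, an intron of 3283 bases on chromosome 9 from 119030253 to 119033535. Mir26a-2 (ENSMUSG00000065430.1) is in intron 5 of 7 of Ctdsp2, 1946 bases on chromosome 10 from 126993909 to 126995854. Mir26b (ENSMUSG00000065468.1) is in intron 4 of 6 of Ctdsp1, which is the shortest of these introns with 564 bases, on chromosome 1 from 74394076 to 74394639. No annotated exon of a host transcript overlapped the hairpins. A further miRNA gene of the Ctdsp2 locus, Mir546, which overlaps annotated exons of Ctdsp2 transcripts, had 1 read in each library.

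The libraries held 2928141 sense reads on miRNA genes in replicate 1 and 3644157 in replicate 2, and levels are given as counts per 1000000 of these (CPM). A further 3734600 and 4807740 reads in replicates 1 and 2 had several places in the genome, 38.9% and 45.8% of all reads in the tables. At this depth 1 read is 0.342 CPM in replicate 1 and 0.274 CPM in replicate 2. Intervals are exact Clopper-Pearson 95% intervals and cover counting error only, since reads are not independent molecules. The hairpins have 84 to 90 bases and the mature arms 21 or 22, so levels were compared per gene with no correction for length.

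Reads assigned to a gene of the family were almost all on the single-copy gene. Mir26a-1 had 22 reads in replicate 1 and 99 in replicate 2, which are 7.51 CPM (interval 4.71 to 11.4) and 27.2 CPM (22.1 to 33.1). Mir26a-2 had 33 and 67 reads, which are 11.3 CPM (7.76 to 15.8) in replicate 1 and 18.4 CPM (14.2 to 23.3) in replicate 2. Mir26b had 16112 and 48198 reads, which are 5502 CPM (5418 to 5588) in replicate 1 and 13226 CPM (13109 to 13344) in replicate 2. In assigned reads, which leave out those with several places, the mir-26a genes were thus low and Mir26b high in each library, with no overlap between them. Mir26b held 99.7% of the 16167 reads assigned to the 3 genes in replicate 1 and 99.7% of the 48364 in replicate 2. None of the 3 genes had an antisense read, and their counts with and without strand were the same.

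**Figure D2:**
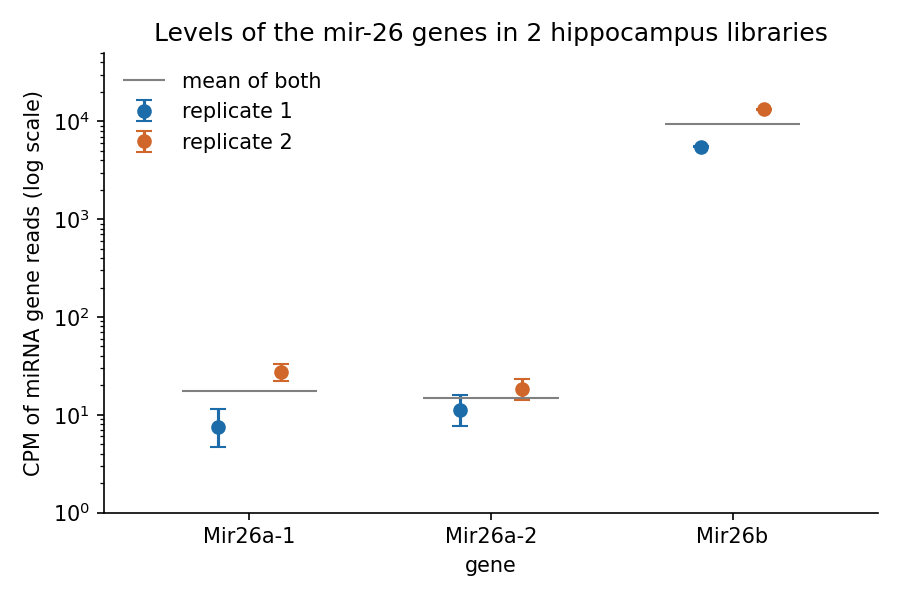
Levels of the 3 genes in replicate 1 (blue) and replicate 2 (orange) in CPM on a log axis, with exact 95% intervals for counting error and the mean of both libraries as a grey line. The mir-26a genes lie between 7.51 and 27.2 CPM, and Mir26b lies at 5502 and 13226 CPM.

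Over both libraries the means were 17.3 ± 13.9 CPM for Mir26a-1, 14.8 ± 5.03 CPM for Mir26a-2 and 9364 ± 5461 CPM for Mir26b (SD, n = 2). In descending order Mir26b ranked 21 of 2202 genes, Mir26a-1 289 and Mir26a-2 295. The difference between the mir-26a genes was smaller than their spread, and their order was opposite in the libraries. Mir26b stood apart from both by more than its SD. Its own rank was 36 in replicate 1 and 12 in replicate 2, and 32 other genes had a mean within 1 SD of its mean.

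The contrast of duplicated and single-copy genes was nearly the same in both libraries. Per 1000 reads of Mir26b there were 3.41 reads of mir-26a, both genes summed, in replicate 1 (exact 95% interval 2.57 to 4.45). In replicate 2 there were 3.44 (2.94 to 4.01), and the mean was 3.43 ± 0.0216 (SD, n = 2). Both intervals for counting error are far wider than this SD, so the SD does not give the precision of the ratio. Over the libraries, mir-26a was lower than Mir26b in 2 of 2, and the two-sided exact permutation test paired by library gave p = 0.5, the smallest that 2 libraries allow. In other terms, Mir26b had 293 reads in replicate 1 and 290 reads in replicate 2 for every read on a mir-26a gene. The ratio of mir-26a to Mir26b in replicate 1 was 0.991 times that in replicate 2, with a conditional exact 95% interval of 0.717 to 1.35 (Fisher's exact test, two-sided, p = 1; adjusted p = 1 over the 4 gene pairs compared). The test compares these libraries, and any quotient within the 95% interval remains compatible with their counts.

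Taken singly, neither mir-26a gene passed this test against Mir26b. Per 1000 Mir26b reads, Mir26a-1 had 1.37 in replicate 1 and 2.05 in replicate 2, so the quotient of replicate 1 over replicate 2 was 0.665 (0.399 to 1.06; exact test, adjusted p = 0.123). For Mir26a-2 the values were 2.05 and 1.39, with a quotient of 1.47 (0.940 to 2.27; exact test, adjusted p = 0.123). Reads of Mir26a-1 over reads of Mir26a-2 came to 0.667 in replicate 1 and 1.48 in replicate 2, and this difference had p = 0.0127 by Fisher's exact test. It missed the threshold of 0.05 after Benjamini-Hochberg adjustment over the 4 pairs, at 0.0508. Each of these ratios rests on 22 to 99 reads of a mir-26a gene.

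The reads of Mir26b that exceeded those of mir-26a numbered 16057 in replicate 1 and 48032 in replicate 2. These equal 0.430% and 0.999% of the reads with several places in replicates 1 and 2. How many of the reads with several places came from miR-26a-5p was not tested, because that row is not divided by gene. The low counts of Mir26a-1 and Mir26a-2 are therefore levels of reads with 1 place, and the amount of miR-26a-5p in the tissue was not measured by them.

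Duplicated genes had fewer assigned reads than single-copy relatives in most other seed families too. Reads that match several loci are not in these counts, so the ratios do not compare amounts of the mature miRNAs. A lower level of the duplicated genes cannot be told apart from reads lost to that row. A list of 15 families in which some mature miRNAs come from several loci and others from 1 was written from general knowledge. Families with under 10 reads in a library were left out, 2 in number, and so was 1 family whose single-copy gene has another seed in RefSeq, mir-219. In 11 of the 12 families compared, RefSeq lists the same seed for the duplicated and the single-copy genes it holds, and for mir-135 the seed of the single-copy gene was not checked. The duplicated genes had fewer reads than the single-copy genes in both libraries in 11 of the 12, mir-26 included. Among the 12 the exception was mir-135, which also had the highest ratio of them. It had 869 duplicated-gene reads per 1000 single-copy reads in replicate 1 and 1509 in replicate 2. In mir-219, left out after its values were seen, the duplicated genes had 9486 reads in replicate 1 and 4143 in replicate 2. The single-copy gene of mir-219 had 0 reads in both libraries. The mir-26 family had the lowest ratio of the 12 in each library, at 3.41 and 3.44 on the same scale. The next lowest mean ratio belonged to mir-103, with 9.74 in replicate 1 and 12.1 in replicate 2 for Mir103-1 and Mir103-2 over Mir107, and mir-29 followed with 18.8 and 11.2. The median over the other 11 families was 107 per 1000. The order of the families rests on 2 libraries and was not tested.

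**Figure D3:**
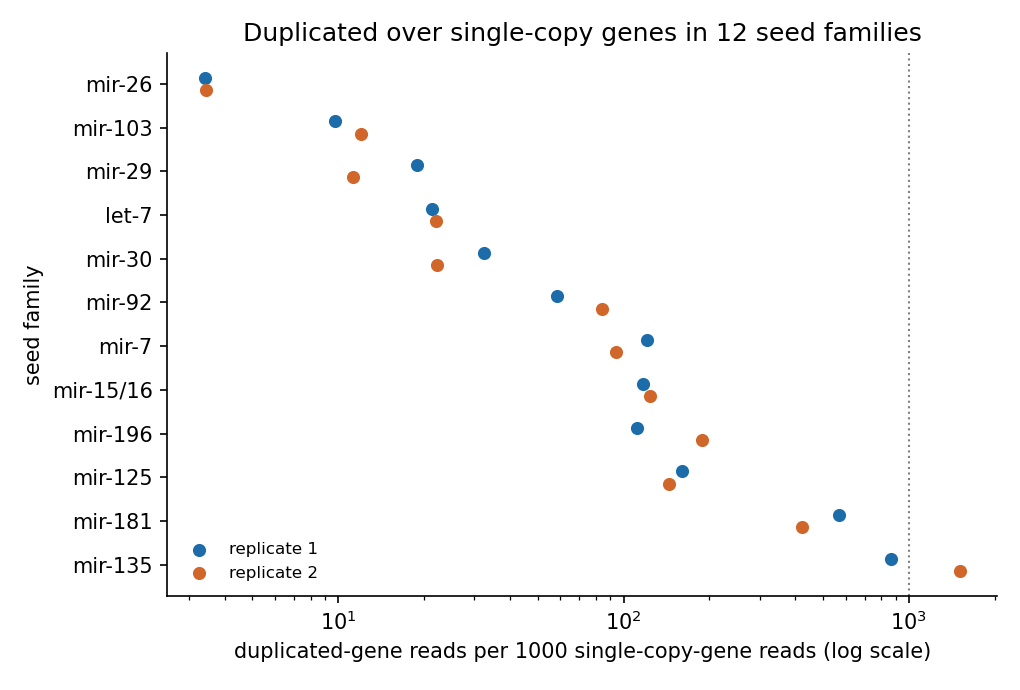
Reads of duplicated genes per 1000 reads of single-copy genes of the same seed family, on a log axis, in replicate 1 (blue) and replicate 2 (orange); the dotted line marks equal reads. The mir-26 points, at 3.41 and 3.44, lie to the left of the other 11 families. Reads with several places are in neither count.

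Both mir-26a genes were also in the lower part of the genes that share 1 arm. Of miRNA genes with 2 mature sequences in RefSeq, 57 had 1 arm in common with another gene and the other arm of their own. Of these 57, 37 had at least 10 reads in each library, with a median level of 159 CPM. Mir26a-1 lay above 16.2% and Mir26a-2 above 13.5% of the 37. Mir26b, with neither arm shared, lay above 92.7% of the 247 such genes with at least 10 reads in each library, whose median was 175 CPM. The medians of these classes were close to each other, and the mir-26 genes lay toward opposite ends of them. These medians leave out genes with fewer reads, since 64.9% of genes with 1 arm shared and 42.5% with none reached the limit. Of 19 genes with both arms shared 3 reached it, with a median of 121 CPM. The effect of a shared arm on the counts was not tested.

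Between the libraries, all 3 genes were lower in replicate 1. Mir26a-1 was at 0.277 times its CPM in replicate 2 (exact 95% interval 0.166 to 0.442; log2 ratio -1.85). Mir26a-2 was at 0.613 times (0.391 to 0.943; log2 ratio -0.71), and Mir26b at 0.416 times (0.409 to 0.424; log2 ratio -1.27). By a two-sided exact binomial test of the reads, adjusted by Benjamini-Hochberg over the 474 genes with at least 10 summed reads, p was 4.10e-09 for Mir26a-1 and 0.0372 for Mir26a-2. For Mir26b it was too small for the arithmetic used. This test takes counting noise as the only noise and compares 2 libraries, with no replicate behind either side.

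The 3 calls have to be read against a large background. The test called 58.0% of the 474 genes in either direction, 31.6% as lower in replicate 1 and 26.4% as higher. A ratio of at least 2-fold in either direction was found for 22.4% of them, and one of at least 2-fold lower in replicate 1 for 13.3%, among them Mir26a-1 and Mir26b. The median log2 ratio was -1.27 over the 3 genes and -0.04 over all 474. The call of Mir26a-2 was lost where the most abundant gene was taken out of the totals (adjusted p = 0.0727) and with no filter on low counts (adjusted p = 0.0550), by the same exact test. The 2 values are the highest of its 7 alternatives, the lowest being 0.00732.

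**Figure D4:**
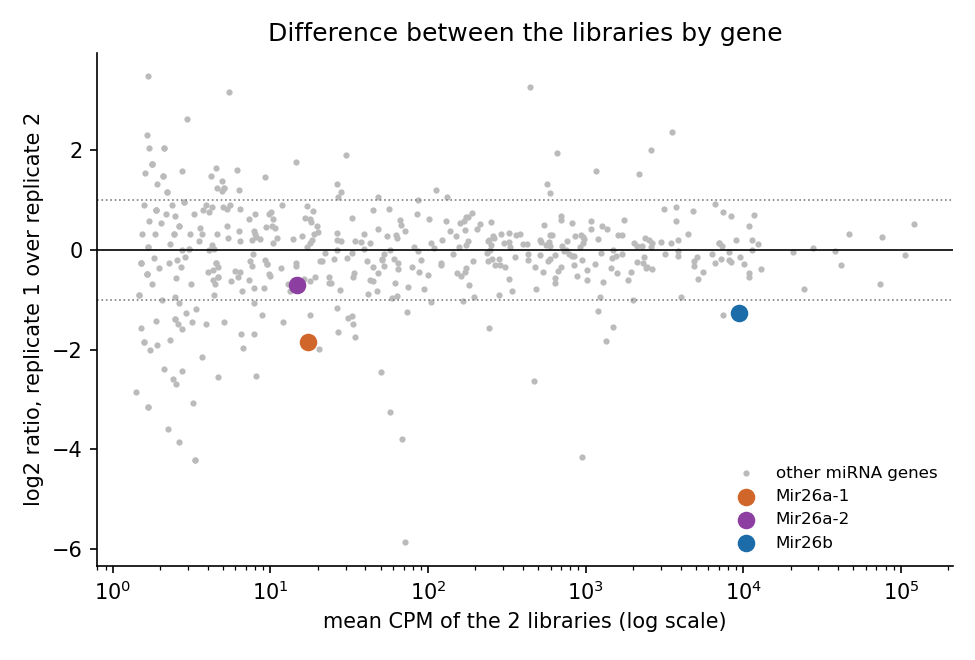
Log2 ratio of replicate 1 over replicate 2 against mean CPM (log axis) for the 474 miRNA genes with at least 10 summed reads; dotted lines mark 2-fold. The 3 mir-26 genes, in colour, lie below 0 at -1.85, -0.71 and -1.27, and few genes of the level of Mir26b lie as low.

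Mir26b was 1 of 9 abundant genes that differed by at least 2-fold between the libraries. Of 95 genes with a mean of at least 1000 CPM, a limit chosen after the values were seen, these 9 made up 9.47%, and 5 of them were lower in replicate 1. Besides Mir26b these 5 were Mir204 (log2 ratio -1.83), Mir370 (-1.55), Mir128-1 (-1.30) and Mir668 (-1.23). The SD of Mir26b was 58.3% of its mean, above that of 91.2% of the 376 genes with at least 10 reads in each library, where the median was 18.7%. For Mir26a-1 the SD was 80.1% of the mean and for Mir26a-2 33.9%.

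Genes nearest to each member were found by the distance of log2(CPM + 1) over the 2 libraries, which is a likeness over 2 points only. Nearest to Mir26b was Mir128-1, a neuron-enriched miRNA, with 4326 CPM in replicate 1 and 10622 CPM in replicate 2, followed by Mir433 and Mir328. Mir26a-1 was nearest to Mir34b, which had 24 reads in replicate 1 and 119 in replicate 2, then to Mir764 and Mir92-2. Mir26a-2 was nearest to Mir9-1 with 33 and 62 reads, Mir181a-2 with 32 and 62, and Mir5113.

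Genes listed as markers of cell types differed between the libraries beside the mir-26 genes. Fewer cells of a type cannot be told apart from less RNA per cell in bulk tissue. Of all 474 genes tested, the read test called 31.6% lower and 26.4% higher in replicate 1. Calls near these shares are not particular to a list. The 13 neuronal genes summed to 36997 CPM in replicate 1 and 41832 CPM in replicate 2. Of 10 tested, 5 were called lower in replicate 1 and 3 higher, and Mir124a-2 was at 0 in replicate 2. Reads with several places are not in the sum of this list, so the 0 does not show that the mature miRNA was absent. Mir132, an activity-regulated miRNA, had the highest mean of this list at 11395 CPM. The 8 genes listed for astrocytes summed to 18305 and 12696 CPM in replicates 1 and 2, and all 8 were called higher in replicate 1. Mir29a led this list with 9631 CPM in replicate 1 and 8396 CPM in replicate 2. Which cell types these reads came from is not shown by bulk tissue. The 3 oligodendrocyte genes, led by Mir219a-2, summed to 5352 and 2536 CPM with 2 of 3 called higher in replicate 1, and the 3 erythroid genes, led by Mir451a, to 1176 and 340 CPM with 3 of 3. The astrocyte, oligodendrocyte and erythroid lists were thus higher in replicate 1, where the mir-26 genes were lower. The 3 endothelial and mural genes, led by Mir126a, summed to 19436 and 15579 CPM, with 1 called higher and 2 lower in replicate 1. The 5 genes of microglia and leukocytes, led by Mir150, summed to 1589 and 1881 CPM, with 1 called higher and 2 lower. No gene of these lists other than Mir124a-2 was at 0 in a library. The reads with several places were also fewer in replicate 1, as a share of all reads, as given above. That share also depends on unplaced reads, which numbered 2573230 in replicate 1 and 1545428 in replicate 2. Per sense read on a miRNA gene, reads with several places came to 1.28 in replicate 1 and 1.32 in replicate 2. The part of cell types and of read placement in the difference of the mir-26 genes was not tested.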

How the data were processed

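Small RNA libraries with inserts under 30 nucleotides, per the labels, were counted by the authors as whole reads per miRNA gene. The deposited counts are not normalized and come in 3 unnamed columns per library, on assembly mm10 with GENCODE M21, per the notes deposited with the counts. Which aligner and counter were used is not given in the sources used here. Columns were read as counts without strand, sense and antisense, and the stranded column with the larger total was used as sense. The 4 rows that name no gene, 69.5% and 65.3% of reads in replicates 1 and 2, entered neither totals nor tests.

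All 2202 identifiers matched GENCODE M21. CPM used each library's sense reads on miRNA genes. Genes with at least 10 summed reads were compared between libraries by a two-sided exact binomial test with Benjamini-Hochberg adjustment (threshold 0.05). The test was first tried on simulated counts with counting noise only, so further variation between libraries was not covered by that trial. Over samples, mir-26a was set against Mir26b by an exact permutation test paired by library, which cannot go below p = 0.5 with 2 libraries. The text names the 3 members, the 3 genes nearest to each, the families with extreme ratios, mir-103 and mir-29, and the most abundant gene of each marker list. Mir124a-2, Mir546, Mir6932, Mir7039 and the abundant genes 2-fold lower in replicate 1 were named, and mir-219 was left out for its seeds, after their values were seen. Members and lists were chosen with earlier results of these data known.

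Alternatives were counts without strand, TMM scaling (edgeR 4.0.16), DESeq2 1.42.0 size factors, other totals and filters, leaving out either replicate, and other window lengths. Calculations ran in R 4.3.3 and Python 3.11.15 with scipy 1.17.1, pandas 2.3.3, numpy 2.4.6 and matplotlib 3.10.9.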

Additional observations from a re-analysis of the deposited data

How the results depend on the processing

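The direction of all 3 genes between the libraries held under each of 7 alternatives, with log2 ratios of replicate 1 over replicate 2 from -2.04 to -1.78 for Mir26a-1, -0.89 to -0.64 for Mir26a-2 and -1.45 to -1.20 for Mir26b. The call of Mir26a-2 was lost where the most abundant gene was taken out of the totals (-0.64), which moved every log2 ratio by 0.07, and with no filter on low counts (-0.71), where more genes were adjusted over. With all reads of the table as the total, the median of all genes moved by -0.19 on the log2 scale, and mean levels were 5.87 CPM for Mir26a-1, 4.91 CPM for Mir26a-2 and 3137 CPM for Mir26b, since that total is larger. The number of genes called ranged from 232 to 275. With either replicate alone, levels ranged from 7.51 to 27.2 CPM for Mir26a-1, 11.3 to 18.4 CPM for Mir26a-2 and 5502 to 13226 CPM for Mir26b, and mir-26a over Mir26b from 3.41 to 3.44 per 1000. That ratio was 1.71 with Mir26a-1 alone and 1.72 with Mir26a-2 alone, where a gene of the sum is left out. The mir-26 family kept the lowest ratio of 12 families under 4 alternatives. Of these, a limit of 50 reads kept the same 12 families, and leaving out either replicate repeats the place given for each library. In 2 more, chosen after seeing the data, mir-26 was the lowest of 13 with mir-219 kept and the lowest of 12 with every further RefSeq gene of the same seed added. Keeping mir-219 could not change the lowest place, because its single-copy gene had 0 reads in both libraries. Windows of 25 bases left 1 shared window in each mir-26a hairpin, and windows of 28 bases left 0. With 18 bases 8 windows of Mir26a-1 and 9 of Mir26a-2 were shared, and 0 of Mir26b at any length. No pairing of samples across groups was possible because there is 1 group. Genes were compared within each library, and the permutation test of mir-26a against Mir26b was paired by library. The 22 to 99 reads of each mir-26a gene limit the precision of its ratios.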
